A study of Mus musculus with 32 samples.

Results

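Brains of BALB/c mice that carried BAL17VII lymphoma cells were compared with brains that carried BAL17 cells, both taken 21 days after implantation. Samples were chosen by their titles, which name the cell line, the day and a replicate number, and this gave 5 BAL17VII brains and 5 BAL17 brains among the 32 samples of the series. The study used these lines to model primary lymphoma of the central nervous system, with 500000 cells placed in the brain of wild-type mice. BAL17 cells come from a B cell lymphoma of a BALB/c mouse, and BAL17VII was derived from them. The labels describe the tissue as whole brain and give frozen tissue sections with Trizol extraction for every sample. They name no age, sex, batch or date. Of the other arrays, 6 of cultured BAL17 cells, 6 of cultured BAL17VII cells and 5 brains that received PBS and were taken at day 28 serve here as points of reference. There was no PBS group at day 21. The labels do not say whether each array was 1 mouse or each culture array 1 culture, so the p-values measure the spread between arrays only.

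Primary lymphoma of the central nervous system is in most patients a large B cell lymphoma that grows around vessels and spreads into the brain tissue. A whole-brain RNA sample mixes the transcripts of neurons, glia and vessels with those of implanted B cells and of the immune cells that enter. A lower level of a cell type's genes in such a sample can come from fewer of those cells or from less RNA per cell, and these cannot be told apart here.

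All values are log2 intensities of Affymetrix gene arrays. Every difference is BAL17VII minus BAL17, so that 1 unit is a 2-fold change and a negative value is a lower level in BAL17VII brains, and it is followed by its standard error (SE) from limma. A gene is called higher or lower where its p-value, adjusted by the Benjamini-Hochberg method over all 21789 probe sets with a single gene symbol, lay under 0.05. Values per brain are listed in the order of replicates 1 to 5. Some genes passed the threshold only while all arrays were in the fit, and for these either the number of the 10 fits with 1 array left out that still called the gene or each array without which the call was lost is given.

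BAL17VII replicate 1 stood apart from the other implanted brains and had a mean of lymphoma transcripts close to that of PBS brains. A class of 163 lymphoma-high genes was formed from arrays outside the comparison, namely genes at least 3 log2 units higher in the cultures of both lines than in PBS brains. Their mean was 7.40, 7.52, 7.48, 7.42 and 7.85 in BAL17 brains and 5.76, 7.21, 6.97, 6.72 and 7.03 in BAL17VII brains. PBS brains had a mean of 5.70 and lay between 5.66 and 5.75. Thus every BAL17VII brain lay under every BAL17 brain, and BAL17VII replicate 1 lay beside the highest PBS brain. The mean of the 18 measured B lineage genes in that brain was 6.17, and the mean over PBS brains was 6.17 too. Results are therefore given with and without this brain. The converse class of 675 brain-high genes had means of 9.19 to 9.38 in BAL17 brains and of 9.41 to 9.75 in BAL17VII brains, with the highest value in replicate 1.

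**Figure D1:**
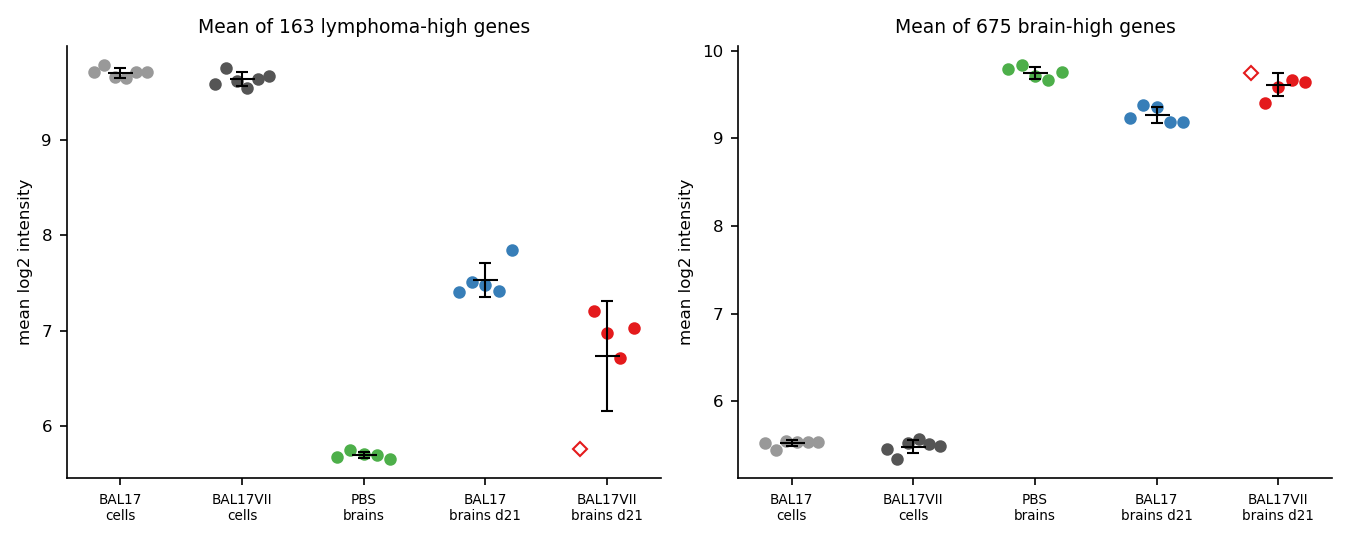
Mean log2 intensity of 163 lymphoma-high genes (left) and 675 brain-high genes (right) on each array, for both cultured lines, PBS brains at day 28 and both groups of brains at day 21. Bars mark the group mean and SD, and the open diamond is BAL17VII replicate 1, whose lymphoma-high mean of 5.76 lies beside the PBS brains.

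Of 19938 genes, 942 were higher and 485 lower in BAL17VII brains, which is 4.72% and 2.43% of the genes tested. The counts given below for classes, lists and families of genes are to be read beside these shares. Differences of more than 1 log2 unit were seen for 27 of the higher and 45 of the lower genes, or 0.135% and 0.226% of all. Without replicate 1 the count was 762 genes (3.82%), 485 higher (2.43%) and 277 lower (1.39%). With and without it, 734 genes (3.68%) were called, all of them in the same direction. After quantile normalization of the arrays the balance of directions shifted, to 801 higher and 673 lower genes with all brains and to 439 and 418 without replicate 1. The values of the 5 brains of each line did not overlap for 1431 genes, or 7.18%. The count also moved with single arrays other than BAL17VII replicate 1. It was 658, 2494, 824, 664 and 499 without BAL17 replicates 1 to 5 in turn, and 2313, 739 and 867 without BAL17VII replicates 2, 3 and 5. The called genes mostly lay nearer to the PBS level in BAL17VII brains: this held for 904 of the 942 higher genes (96.0%) and 473 of the 485 lower genes (97.5%), compared with 72.7% of all genes.

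Of the 163 lymphoma-high genes, 63 (38.7%) were lower in BAL17VII brains, beside 2.43% of all genes, and none was higher. Their median difference was -0.73 compared with -0.003 over all genes. All 163 differences were negative. Without replicate 1, 64 of them were lower and the median was -0.45. The median difference of these genes between the cultured lines was -0.04. Of the 76 lymphoma-high genes whose culture levels lay within 0.25 of each other, 28 were lower in the brains, with a median of -0.72. Of the 675 brain-high genes, 227 (33.6%) were higher, beside 4.72% of all genes, and 3 were lower in BAL17VII brains, with a median of 0.33. Without replicate 1, 127 were higher and the median was 0.29.

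A first group of genes was lower in BAL17VII brains and was lower in cultured BAL17VII cells as well. Rgs13, which encodes a regulator of G protein signalling found in germinal centre B cells, had the lowest difference of all called genes. Its values were 8.06, 9.06, 10.46, 8.46 and 8.82 in BAL17 brains and 4.98, 6.82, 6.44, 5.26 and 5.45 in BAL17VII brains. The groups did not overlap, and 3 of the BAL17VII brains lay within 1 unit of the PBS mean of 4.65. The difference was -3.18 ± 0.41, a 9.07-fold lower intensity (adjusted p = 0.0012). Without replicate 1 it was -2.98. In culture the level was 8.98 ± 0.14 (SD, n = 6) in BAL17VII and 11.35 ± 0.07 in BAL17 cells, a difference of -2.37 that was not called different from the one in brains (adjusted p = 0.23).

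Il7r, the receptor chain for interleukin-7, read 8.50, 8.28, 7.71, 8.34 and 8.84 in BAL17 brains and 6.13, 6.62, 6.56, 6.33 and 6.81 in BAL17VII brains. The groups did not overlap, and BAL17VII brains lay near the PBS mean of 6.13. The difference was -1.84 ± 0.18 (adjusted p = 0.00026), beside -2.11 in culture. Map3k15, a MAP kinase kinase kinase, read 8.95, 9.09, 9.25, 9.29 and 9.81 against 6.48, 7.60, 7.43, 7.57 and 7.26. Its difference of -2.01 ± 0.20 in brains was larger than that of -1.07 in culture, and the difference between them of -0.94 ± 0.21 was called (adjusted p = 0.0037). The lymphoma-high genes, to which Map3k15 belonged, had median differences of -0.73 in brains and -0.04 in culture. Slamf7, a receptor of the SLAM family on lymphocytes and plasma cells, read 7.34, 7.79, 8.95, 7.79 and 8.05 against 5.01, 6.54, 5.95, 4.90 and 5.78. It differed by -2.35 ± 0.31 in brains and by -1.38 in culture, and the difference between them was called narrowly (-0.98, adjusted p = 0.048), but not when brains and cultures were fitted apart (adjusted p = 0.052).

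Other genes with lower levels in both settings had smaller differences. D17H6S56E-5 differed by -1.45 ± 0.17 in brains and by -1.39 in culture. Spinkl and Spink11, relatives of Kazal-type protease inhibitors, differed by -1.67 ± 0.22 and -1.44 ± 0.24 in brains and by -0.87 and -1.13 in culture. Slpi, the secretory leukocyte protease inhibitor, was chosen after its values were seen and differed by -1.23 ± 0.14 in brains and by -1.04 in culture. Kynu, kynureninase of the tryptophan pathway, differed by -0.87 ± 0.20 in brains (called in 9 of 10 fits with an array left out, adjusted p = 0.059 without BAL17 replicate 1) and by -1.61 in culture. All of these except Kynu had values that did not overlap between the groups.

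**Figure D2:**
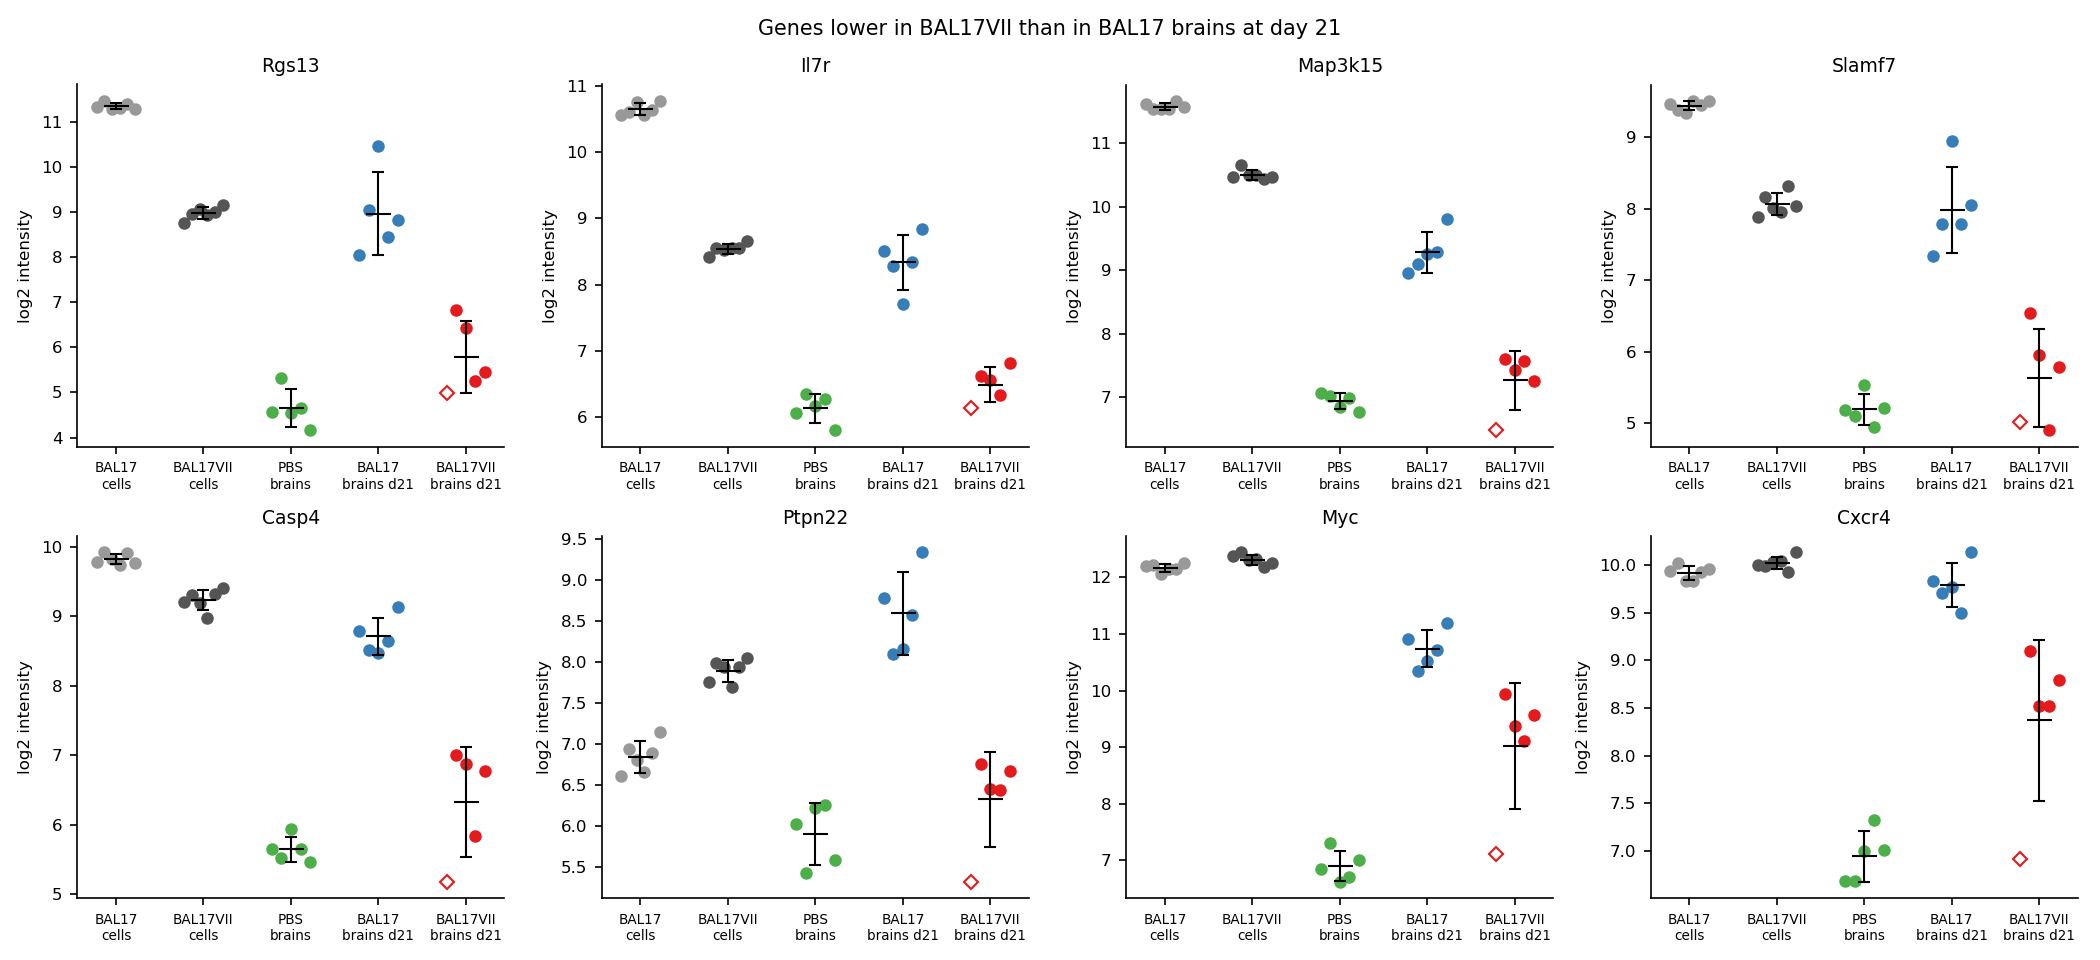
Log2 intensity per array of 8 genes with a lower level in brains of BAL17VII than of BAL17, with both cultures and PBS brains for reference, group mean and SD as bars and BAL17VII replicate 1 as an open diamond. Rgs13, Il7r, Map3k15 and Slamf7 were lower in cultured BAL17VII cells too, whereas cultured levels of Myc and Cxcr4 differed by 0.15 and 0.11.

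A second group had no comparable deficit in culture. Lymphoma-high genes with culture levels within 0.25 of each other had a median brain difference of -0.72. The values of single genes below are to be read beside it. Casp4, an inflammatory caspase, read 8.79, 8.51, 8.48, 8.64 and 9.14 in BAL17 brains and 5.18, 7.0, 6.88, 5.84 and 6.77 in BAL17VII brains. The lowest BAL17 brain lay well above the highest BAL17VII brain. The difference was -2.38 ± 0.29 (adjusted p = 0.00085), and -0.59 in culture. Ptpn22, a phosphatase that restrains antigen receptor signalling in lymphocytes, went the opposite way in culture. It read 8.78, 8.10, 8.16, 8.57 and 9.33 in BAL17 brains and 5.32, 6.75, 6.45, 6.44 and 6.67 in BAL17VII brains, a difference of -2.26 ± 0.27 (adjusted p = 0.00085). In culture BAL17VII cells had 7.89 ± 0.14 and BAL17 cells 6.84 ± 0.20, so the difference between brain and culture was -3.31 ± 0.29 (adjusted p = 1.4e-08). Its level in BAL17 brains was thus above that of the cultured BAL17 cells.

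Ctse, the aspartic protease cathepsin E, read 9.43, 9.33, 9.37, 9.29 and 9.62 against 5.73, 8.17, 7.90, 7.66 and 8.18, and differed by -1.88 ± 0.35 in brains and by 0.16 in culture. Without replicate 1, which lay at the PBS mean of 5.73, the difference was -1.43 with an adjusted p of 4.2e-05. Mcoln2, an endolysosomal cation channel chosen after its values were seen, differed by -1.41 ± 0.13 in brains and by 0.19 in culture. Cxcr4, the receptor for the chemokine CXCL12, read 9.83, 9.70, 9.77, 9.50 and 10.13 against 6.92, 9.10, 8.52, 8.52 and 8.79. It differed by -1.42 ± 0.30 (adjusted p = 0.015), by -1.05 without replicate 1, and by 0.11 in culture. The 5 values of each group did not overlap for any of these genes.

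Myc, the transcription factor that drives growth and ribosome production, read 10.91, 10.35, 10.53, 10.71 and 11.19 in BAL17 brains and 7.12, 9.94, 9.37, 9.10 and 9.57 in BAL17VII brains. The difference was -1.72 ± 0.39 (adjusted p = 0.020) and -1.24 without replicate 1 (adjusted p = 0.0020), whereas cultured cells held 12.31 ± 0.09 and 12.16 ± 0.07. Leaving out BAL17 replicate 1 or 5 gave an adjusted p of 0.051 or 0.061. Cdk6, a kinase of the G1 phase, differed by -1.46 ± 0.40 and by -0.97 without replicate 1, and P2ry10, a lysophospholipid receptor of lymphocytes, by -2.09 ± 0.54 and -1.43. These were called in 4 and 6 of the 10 fits with an array left out, where the highest adjusted p was 0.10 for Cdk6 and 0.091 for P2ry10. Klhl6, a ubiquitin ligase adaptor of B cells, differed by -1.45 ± 0.36 and was called in 6 of these 10 fits, with the highest adjusted p of 0.057 without BAL17VII replicate 1. BAL17 replicate 3 held its highest value, 9.47, while the other BAL17 brains lay between 6.99 and 7.65.

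Regulators of cell death were lower in part. Of 11 measured apoptosis genes, 5 were lower and none higher, with a median of -0.27. Bcl2l11, which encodes the death-promoting BIM, differed by -1.08 ± 0.15, and its values of 7.0 to 7.68 in BAL17 brains lay above those of 5.62 to 6.34 in BAL17VII brains. The survival gene Bcl2 differed by -0.83 ± 0.19 and Bid, a death-promoting relative, by -0.38 ± 0.09. Bcl2 was not called without BAL17 replicate 5 (adjusted p = 0.063), and Bid not without BAL17 replicate 4 or 5 (0.054 for each). Cultured lines differed by 0.05, -0.07 and 0.01 in Bcl2, Bcl2l11 and Bid.

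Genes that define B cells mostly had negative differences, and few passed the test. Of 18 measured B lineage genes, 17 had a negative difference, 2 were called lower and none higher, with a median of -0.58, or -0.40 without replicate 1. Pou2af1, a B cell transcriptional coactivator, read 8.47, 8.39, 8.74, 8.56 and 8.58 against 6.35, 8.01, 7.69, 7.58 and 7.78 and differed by -1.06 ± 0.23 (adjusted p = 0.017). Cd37, a tetraspanin of B cells, differed by -0.96 ± 0.24 and was called in 6 of the 10 fits with an array left out, with an adjusted p of up to 0.076. The chains of the B cell receptor complex, Cd79a and Cd79b, had differences of -0.88 ± 0.35 and -0.84 ± 0.36 (adjusted p = 0.13 and 0.16), and of -0.49 and -0.41 without replicate 1. Cd22, an inhibitory receptor of B cells, had -0.57 ± 0.16, and Ptprc, which encodes the leukocyte antigen CD45, had -0.95 ± 0.34 (adjusted p = 0.051 and 0.097).

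Ms4a1, which encodes CD20, stood higher in implanted brains than in either culture, with 1 exception. It read 6.05, 7.36, 8.81, 7.21 and 6.84 in BAL17 brains and 4.52, 6.85, 6.57, 6.28 and 6.56 in BAL17VII brains, while both cultures lay at 5.30 and 5.31 and the PBS mean at 4.95. The 4 BAL17VII brains other than replicate 1 were therefore above both cultures, as were all 5 BAL17 brains. Its difference of -1.10 ± 0.46 between the groups was not called (adjusted p = 0.16). Whether the RNA came from implanted cells or from B cells of the host was not tested.

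Signalling, germinal centre and plasma cell genes gave few calls. Of 18 genes of B cell receptor signalling, only the phosphatase Inpp5d (SHIP1) was lower, by -0.62 ± 0.11 (adjusted p = 0.0059), and Btk, the kinase downstream of the receptor, had -0.97 ± 0.28 (adjusted p = 0.051; 0.023 without replicate 1). The median of this list was -0.19. Of 10 germinal centre genes, Rgs13 and the histone methyltransferase gene Ezh2 were lower, the latter by -0.45 ± 0.11 (called in 6 of the 10 fits with an array left out, adjusted p = 0.060 without replicate 1 and up to 0.074). Stap1, a B cell adaptor, had -1.10 ± 0.47 (adjusted p = 0.16). Of 12 plasma cell genes, Tnfrsf13b (TACI) and Edem1 were lower, by -0.39 ± 0.08 and -0.40 ± 0.10, and the latter was called in 5 of the 10 fits with an array left out (adjusted p = 0.059 without replicate 1 and up to 0.062). Among 17 homing and adhesion genes, Cxcr4 and Ccr7 were lower while S1pr1 and Cxcl12 were higher. Ccr7, a chemokine receptor, differed by -0.56 ± 0.14 and S1pr1, a sphingolipid receptor that endothelium and glia express too, by 0.54 ± 0.13, and they were called in 4 and 6 of the 10 fits with an array left out (adjusted p up to 0.080 and 0.061).

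Few genes of dividing cells passed the test, although their differences shared a sign. All 20 mitosis genes had negative differences, with a median of -0.74, and 4 were called: Ttk at -1.05 ± 0.26, Aurkb at -0.75 ± 0.19, Kif11 at -1.22 ± 0.33 and Bub1b, chosen after its values were seen, at -1.30 ± 0.36. Their calls were kept in 8, 7, 4 and 3 of the 10 fits with an array left out, and the highest adjusted p was 0.11, for Bub1b. Without replicate 1 the median was -0.41 and 7 mitosis genes were lower. The mean of the list per brain was 7.67, 7.85, 7.68, 7.69 and 8.17 in BAL17 brains and 5.60, 7.63, 7.35, 7.04 and 7.40 in BAL17VII brains, with a PBS mean of 5.59. Top2a, a topoisomerase of dividing cells, had 5.23 in replicate 1 and 8.85 to 9.68 in the other BAL17VII brains, beside 9.32 to 10.23 in BAL17 brains. It was not called (-1.21 ± 0.63, adjusted p = 0.25), and its 2 probe sets differed in sign. The proliferation marker Mki67 had -1.15 ± 0.44 (adjusted p = 0.12) and was called without replicate 1 (-0.59, adjusted p = 0.035).

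DNA replication genes gave more calls: 11 of 23 were lower and none higher, with a median of -0.45, and without replicate 1 it was 5 with a median of -0.35. Mcm4, a subunit of the replicative helicase, read 7.52, 7.66, 7.62, 7.46 and 8.01 against 6.47, 6.72, 7.05, 6.79 and 6.99 and differed by -0.85 ± 0.13 (adjusted p = 0.0025). Mcm2, another subunit, differed by -0.46 ± 0.10 (0.052 without BAL17 replicate 5), and Rfc3, of the clamp loader, by -0.41 ± 0.08. Mcm6, chosen after its values were seen, differed by -1.29 ± 0.33 and was called in 7 of the 10 fits with an array left out (adjusted p up to 0.086). These genes were lower in cultured BAL17VII cells as well: 21 of the 23 were called lower there, beside 6.91% of all genes, with a median of -0.64, and Mcm4, Mcm2, Rfc3 and Mcm6 differed by -1.26, -0.75, -0.73 and -1.0.

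Among 19 measured MYC targets, a list that held Myc itself, 11 were lower and none higher, with a median of -0.45, and 8 were lower without replicate 1. Wdr43, a factor of ribosome assembly, read 10.25, 10.47, 10.23, 10.27 and 10.65 against 9.22, 10.01, 9.57, 9.30 and 9.49 and differed by -0.86 ± 0.14 (adjusted p = 0.0043). Nolc1, a nucleolar phosphoprotein, differed by -0.59 ± 0.11 and Tfrc, the transferrin receptor, by -0.45 ± 0.08. The median of this list between the cultured lines was -0.02. In BAL17VII brains Tfrc lay between 9.07 and 9.31, beside a PBS mean of 9.18.

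Small nucleolar RNA genes, which guide the modification of ribosomal RNA, were looked at after their values were seen. Of 51 on the array, 13 (25.5%) were lower, beside 2.43% of all genes, and 2 (3.92%) higher, beside 4.72%. The median was -0.31, and 12 were lower without replicate 1. Snord22 read 8.27, 8.02, 8.45, 8.47 and 8.87 in BAL17 brains and 7.35, 7.27, 7.25, 7.24 and 7.37 in BAL17VII brains, so that replicate 1 lay among the others. It differed by -1.12 ± 0.13 (adjusted p = 0.00071), while the cultures lay at 10.35 ± 0.11 and 10.41 ± 0.13 and the PBS mean at 7.06. Snord82 differed by -1.44 ± 0.24, Snord53 by -1.20 ± 0.15 and Snora3 by -0.79 ± 0.10. Many of these RNAs are cut from introns of host genes, and the part of host transcripts in these values was not tested.

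Of 287 microRNA genes, 6 (2.09%) were lower and none was higher, and 2 were lower without replicate 1. The share called lower was not above the 2.43% of all genes, so microRNA genes as a family showed no excess of calls, and what follows describes 2 single genes. MicroRNAs pair with their targets through a seed near the 5′ end. The precursor probe sets of Mir99a and Mir191 were lower with and without replicate 1, and both genes were chosen after their values were seen. Their mature sequences, from RefSeq on GRCm38.p6, are shown because an array of this kind measures the gene and not which arm is kept. Bases 2 to 8, the seed, are in capitals.
mmu-miR-99a-5p: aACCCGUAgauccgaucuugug
mmu-miR-99a-3p: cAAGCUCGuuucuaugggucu
mmu-miR-191-5p: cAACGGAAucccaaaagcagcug
mmu-miR-191-3p: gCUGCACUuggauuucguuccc
The arms of miR-99a lie on the plus strand of chromosome 16, at chr16:77598940-77598961 and chr16:77598977-77598997, and those of miR-191 on the plus strand of chromosome 9, at chr9:108568325-108568347 and chr9:108568367-108568388. No seed was shared among the 10 mature sequences found for 5 of the 6 genes. Mir99a read 6.70, 6.04, 6.54, 6.0 and 6.20 in BAL17 brains and 5.82, 5.07, 4.90, 5.46 and 5.76 in BAL17VII brains, a difference of -0.90 ± 0.19 (adjusted p = 0.013). Its mean in BAL17VII brains lay under the PBS mean of 6.26, as it did for 109 (22.5%) of the 485 lower genes, and both cultures were lower still, at 4.34 and 4.49. Mir191 differed by -0.38 ± 0.11 and was called in only 2 of the 10 fits with an array left out (adjusted p up to 0.11).

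Genes of antigen presentation differed between the lines in culture, and 1 of them was called in brains. MHC class II molecules present peptides to helper T cells, and 9 of the 10 class II genes measured were called higher in cultured BAL17VII than in cultured BAL17 cells, beside 8.48% of all genes. H2-Ea, the alpha chain of the E molecule, stood at 11.11 ± 0.10 (SD, n = 6) in cultured BAL17VII and at 5.67 ± 0.11 in cultured BAL17 cells, the latter near the PBS brains. In brains it read 9.26, 9.99, 10.03, 9.36 and 9.37 for BAL17 and 6.46, 10.35, 9.90, 8.85 and 9.78 for BAL17VII, with a PBS mean of 5.85. BAL17 brains thus lay well above the cultured BAL17 cells, and the groups overlapped. The brain difference was -0.53 ± 0.54 (adjusted p = 0.57), and it was lower than the culture difference by -5.98 ± 0.56 (adjusted p = 3.7e-08).

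H2-Aa, the alpha chain of the A molecule, and Cd74, the invariant chain, showed the same arrangement of values. Their brain differences of -0.71 ± 0.52 and -0.37 ± 0.49 were not called, their culture differences were 4.43 and 4.06, and the differences between brain and culture were -5.13 ± 0.56 and -4.43 ± 0.52. Ciita, the master regulator of class II genes, differed by 1.58 in culture and had -0.14 ± 0.10 in brains. All 10 brain values of 5.99 to 6.52 lay above the PBS mean of 5.97 and below the BAL17VII culture at 7.69. Single PBS brains read 5.75 to 6.20 and cultured BAL17 cells had 6.11, so part of the 10 values lay within the PBS range. Of 10 class II genes, only H2-Ob was lower in brains, by -0.67 ± 0.15 (adjusted p = 0.017), which stood at 8.20 in cultured BAL17 cells, 8.84 in cultured BAL17VII cells and 5.97 in PBS brains. Without replicate 1 the median of the list was -0.06. Whether the class II RNA in brains came from lymphoma cells or from host cells was not tested.

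Of the genes that differed most between the cultured lines, a minority was called in brains, though a larger share than the 7.16% of all genes. Of 186 genes (0.933% of all) higher by more than 1 in cultured BAL17VII cells, 17 (9.14%) were higher and 5 (2.69%) were lower in BAL17VII brains, and the median brain difference was 0.07. Of 55 genes (0.276%) lower by more than 1 in culture, 15 (27.3%) were lower and 5 (9.09%) higher, with a median of -0.03. In all, 354 genes were called in both settings, 213 in the same and 141 in the opposite direction, beside shares of 7.16% called in brains and 15.4% in culture. A direct test of the brain difference against the culture difference called 2681 genes (13.4%). It called 878 of the 1690 genes higher in cultured BAL17VII cells, 877 of them with a negative value. Of the 1377 genes lower there it called 648, of which 638 had a positive value. Both sets were picked by the culture difference that the test subtracts. The signs largely follow from that choice and are no result about these genes. Whole-brain samples mix lymphoma and brain transcripts, and the part of this mixing in these values was not tested. That test shares 1 spread between brains and cultures. The residual SD had a median of 0.17 in both, but it was larger in brains for 101 of the 129 genes given in the text, so the p-values of those genes tend to be too small. With brains and cultures fitted apart, 2819 genes were called, and 81 of the 83 genes given in the text that the direct test called were called again, all but Slamf7 and Fkbp5.

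Dock10, a guanine nucleotide exchange factor of lymphocytes and brain, was higher in both settings by different amounts. It read 8.36, 8.42, 8.42, 8.20 and 8.50 in BAL17 brains and 9.35, 9.12, 9.21, 8.97 and 9.10 in BAL17VII brains, a difference of 0.77 ± 0.09 (adjusted p = 0.00085), while cultured cells differed by 5.03. PBS brains had a mean of 8.97, and BAL17VII replicate 1 had the highest value of the 10 brains. Dpp4, a cell surface peptidase, differed by 0.53 ± 0.13 in brains and by 3.52 in culture, and was called in 6 of the 10 fits with an array left out (adjusted p up to 0.075). Adgrg7, an adhesion receptor, had 0.59 ± 0.25 in brains (adjusted p = 0.15) and 3.57 in culture. Trim30a, an interferon-induced gene, and Xlr, an X-linked lymphocyte gene, differed by 3.44 and 3.97 in culture and had 0.05 ± 0.27 and 0.51 ± 0.44 in brains. The direct tests gave -4.26, -2.99, -2.97, -3.38 and -3.46 for these 5 genes, all called.

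Plac8 was higher in BAL17VII brains once replicate 1 was set aside, and Cd2 had a positive value that was not called. Plac8, a small protein of lymphoid and myeloid cells, read 6.74, 6.82, 6.0, 5.91 and 6.75 against 4.60, 8.23, 7.81, 7.08 and 7.94. With all brains its difference was 0.69 ± 0.52 (adjusted p = 0.44), and without replicate 1 it was 1.32 (adjusted p = 0.0074), beside 2.87 in culture. Cd2, an adhesion receptor of lymphocytes, had -0.01 ± 0.42 with all brains and 0.51 without replicate 1 (adjusted p = 0.099), beside 2.02 in culture. In both genes replicate 1 lay near the PBS level and the other BAL17VII brains lay above most BAL17 brains.

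**Figure D3:**
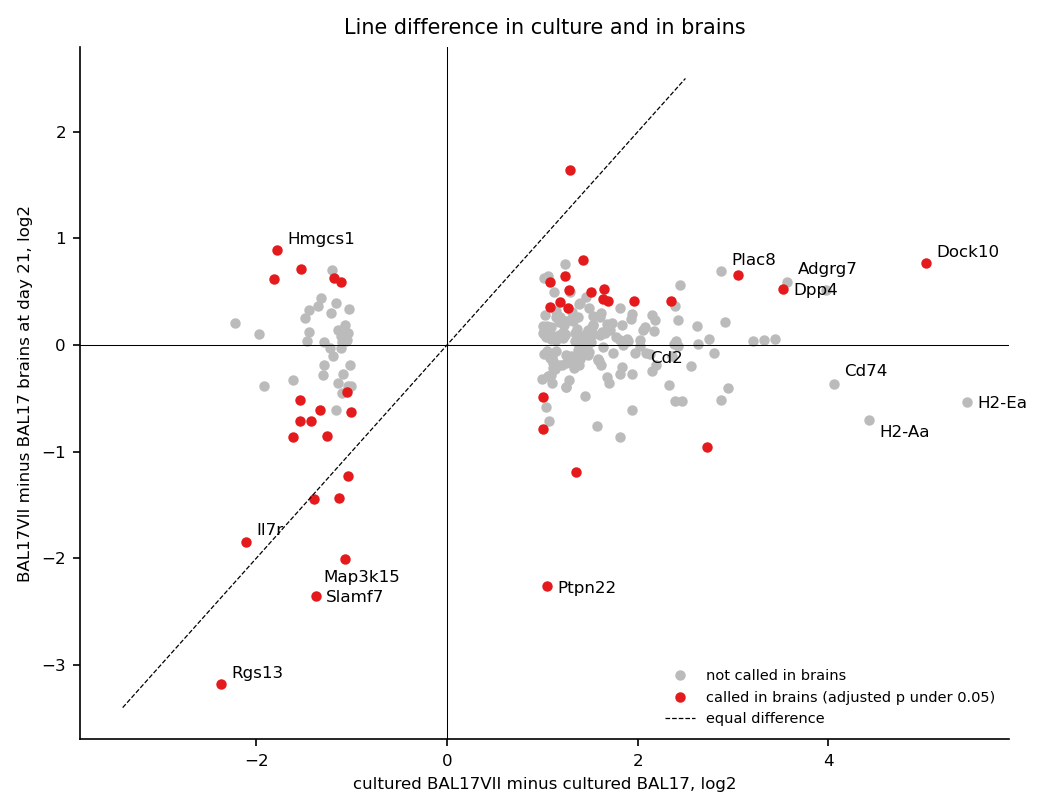
Difference between the lines in brains at day 21 (vertical axis) against that in culture (horizontal axis), both in log2 units, for the genes called in culture with a difference over 1. Red points were called in brains, the dashed line marks equal differences, and H2-Ea at 5.45 in culture and -0.53 in brains lies farthest to the right.

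Interferon and NF-kB response genes gave few calls in brains. Of 16 type I interferon genes, none was called by limma (2 had an unadjusted p under 0.05), with a median of 0.02, although 15 were higher in cultured BAL17VII cells with a median of 1.13. Without replicate 1 none was called either, but the median was 0.14. Then 3 of the differences were negative, beside 8 with all brains. Ifit3 read 5.81 to 7.81 in BAL17 and 6.23 to 8.04 in BAL17VII brains, Ifit2 had a difference of 0.34 ± 0.16 and Rsad2 of -0.32 ± 0.13. Of 10 interferon gamma genes, the checkpoint ligand gene Cd274 (PD-L1) was lower by -0.89 ± 0.24, in 4 of the 10 fits with an array left out (adjusted p up to 0.099). The median of this list was 0.027 with all brains and 0.195 without replicate 1. Birc3, an NF-kB target and inhibitor of cell death, differed by -0.79 ± 0.18 in brains and by 1.01 in culture, and the direct test gave -1.79 ± 0.20. It was called in 8 of the 10 fits with an array left out.

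Apart from hormone genes of the pituitary, described last, the highest difference belonged to Fabp7, the brain fatty acid binding protein of astrocytes and radial glia. It read 7.38, 8.84, 7.20, 7.60 and 7.55 in BAL17 brains and 10.27, 10.30, 10.07, 9.91 and 9.81 in BAL17VII brains. BAL17 replicate 2 was the highest of its group and still lay under the lowest BAL17VII brain. The difference was 2.36 ± 0.24, a 5.13-fold higher intensity (adjusted p = 0.00032), and the PBS mean was 9.81. Without replicate 1 it was 2.31.

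Abi3bp, a matrix-associated protein gene, had the smallest p-value of all genes tested. It read 6.55, 6.48, 6.48, 6.69 and 6.51 in BAL17 brains and 8.04, 8.05, 8.08, 7.63 and 8.11 in BAL17VII brains, a difference of 1.44 ± 0.10 (adjusted p = 1.8e-05), and 1.43 without replicate 1. Hmcn1, the matrix protein hemicentin-1, read 8.44, 7.62, 7.46, 7.66 and 8.13 against 9.22, 9.41, 9.36, 9.34 and 9.19 and differed by 1.44 ± 0.16. It has 77 probe sets, of which 75 were higher by value in BAL17VII brains and 22 had no overlap between the groups, with a median of 0.49 over all 77, so its size rests on the brightest probe set. Efemp1, another matrix gene, differed by 1.08 ± 0.14 and Tnfaip6, which encodes a hyaluronan-binding protein, by 1.32 ± 0.24. Both cultures had Abi3bp at 5.53, and Hmcn1 stood at 5.05 in BAL17VII and 4.99 in BAL17 cells, below all brains. Lxn (latexin, a carboxypeptidase inhibitor) differed by 1.32 ± 0.16, Cryab (a small heat shock protein of glia) by 1.37 ± 0.20 and Gng11 (a G protein subunit) by 1.10 ± 0.23. H2bc4, second to Fabp7 in size among these genes and one of many near-identical H2B histone genes whose signals the probes may not separate, differed by 1.45 ± 0.18.

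**Figure D4:**
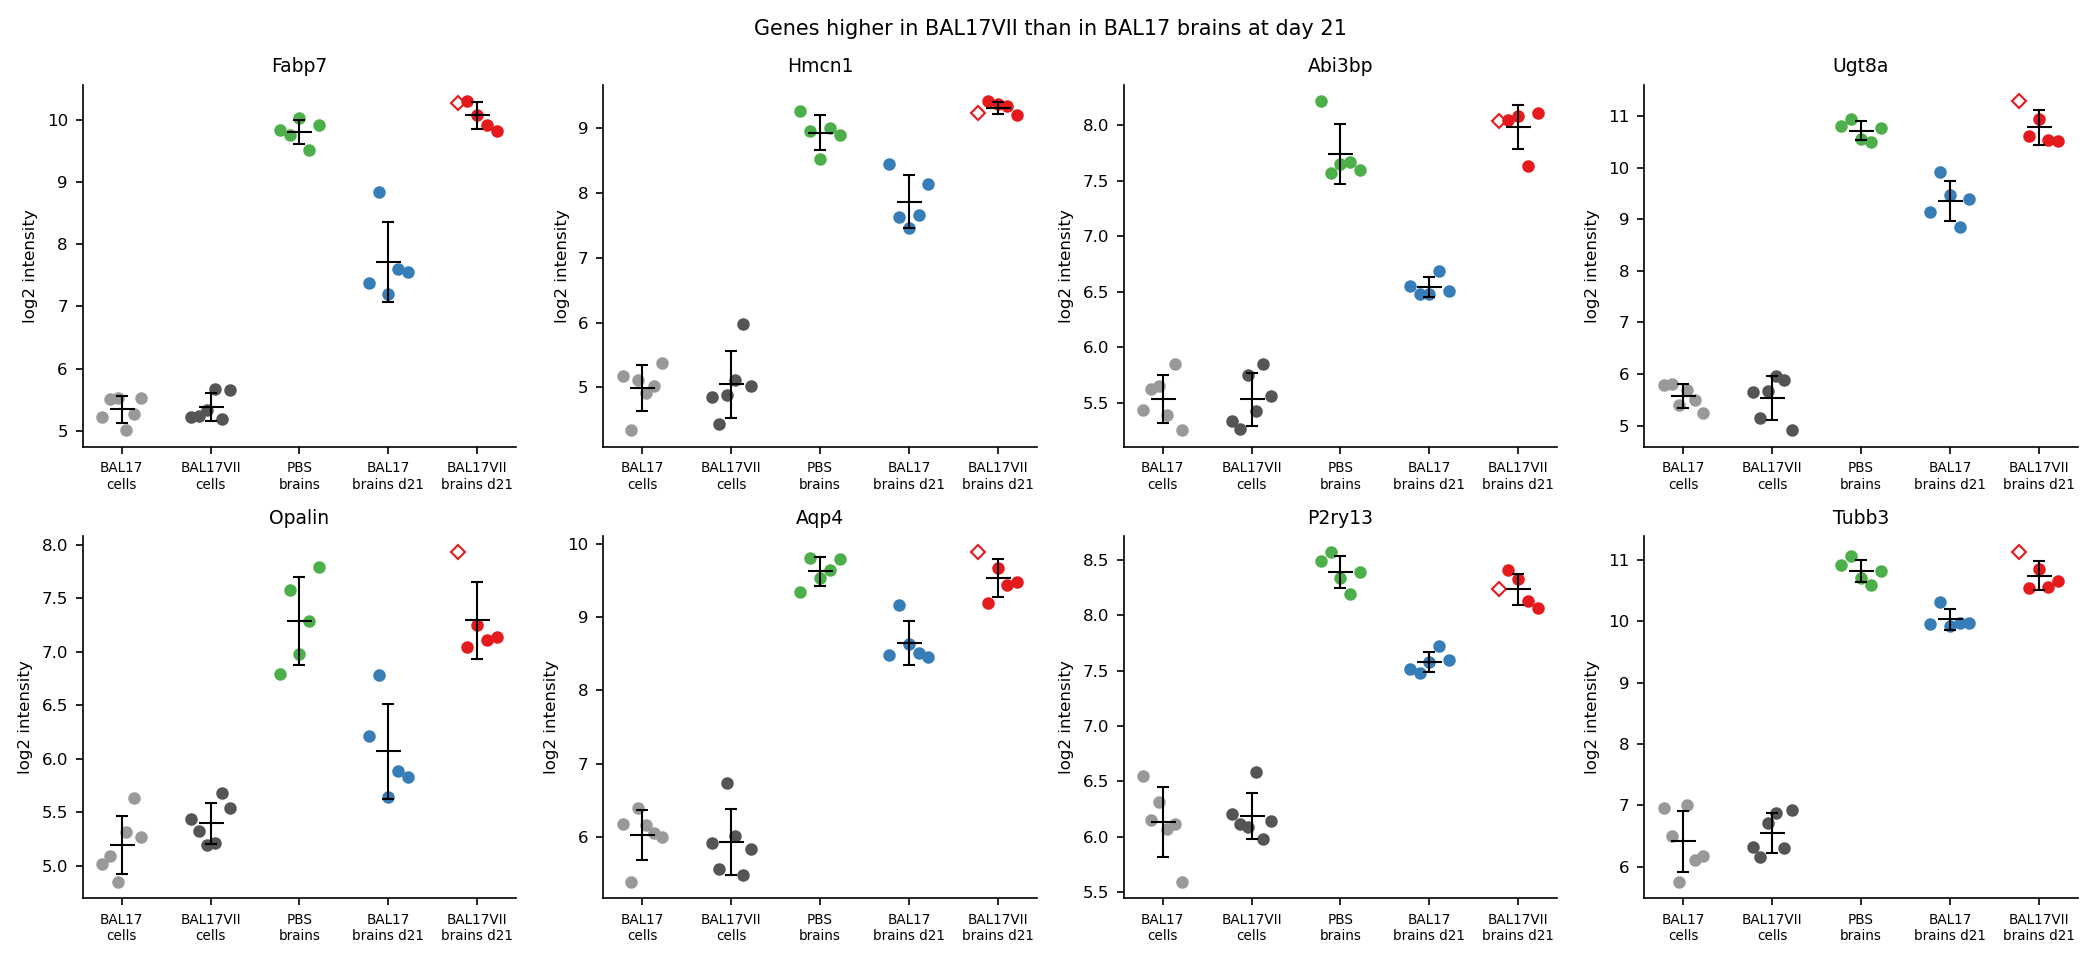
Log2 intensity per array of 8 genes with a higher level in brains of BAL17VII than of BAL17, with both cultures and PBS brains, group mean and SD as bars and BAL17VII replicate 1 as an open diamond. BAL17VII brains lie near the PBS brains, as for Fabp7 with means of 10.07 and 9.81, while BAL17 brains lie lower.

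Oligodendrocytes wrap axons in myelin, and part of their genes were higher in BAL17VII brains. Of 13 myelin genes, 7 were higher and none lower, all 13 had positive differences, and the median was 0.61 (0.48 with 6 called without replicate 1). Ugt8a, which makes the galactolipids of myelin, read 9.14, 9.91, 9.46, 8.85 and 9.40 against 11.29, 10.61, 10.95, 10.54 and 10.51 and differed by 1.43 ± 0.19 (adjusted p = 0.0013). Opalin, a membrane protein of myelin, read 6.21, 6.78, 5.64, 5.89 and 5.83 against 7.93, 7.05, 7.25, 7.11 and 7.14 and differed by 1.23 ± 0.20. Ermn, a cytoskeletal protein of these cells, differed by 1.15 ± 0.22 and Bcas1, a marker of myelinating cells, by 1.10 ± 0.21. Mag, a myelin adhesion protein chosen after its values were seen, differed by 0.85 ± 0.18. Mbp, myelin basic protein, was higher by 0.43 ± 0.12, in 3 of the 10 fits with an array left out (adjusted p up to 0.098).

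Of 13 microglia genes, 7 were higher and none lower, with a median of 0.46 that was the same without replicate 1, when 5 were called. Microglia are the resident macrophages of the brain. P2ry13, a purine receptor of these cells, read 7.52, 7.48, 7.58, 7.72 and 7.60 against 8.24, 8.41, 8.33, 8.13 and 8.07 and differed by 0.66 ± 0.09 (adjusted p = 0.0016). Gpr34 differed by 0.98 ± 0.14, the fractalkine receptor gene Cx3cr1 by 0.61 ± 0.11 and Csf1r, the receptor that maintains microglia, by 0.63 ± 0.14. Csf1r was higher in cultured BAL17VII cells too, by 0.76 (limma adjusted p = 5.2e-06). The direct test of brain against culture did not call it (-0.13, adjusted p = 0.65). Csf1r was chosen after its values were seen. P2ry12, chosen likewise, differed by 0.71 ± 0.17 and was called in 5 of the 10 fits with an array left out (adjusted p = 0.058 without replicate 1 and up to 0.075). PBS brains had means of 8.40 for P2ry13, 6.08 for Gpr34 and 7.90 for Cx3cr1, so BAL17VII brains, at 8.23 and 5.96, lay near the PBS level for P2ry13 and Gpr34. For Cx3cr1 BAL17VII brains lay above it at 8.21 and BAL17 brains below it at 7.60, at similar distances. Aif1, a pan-macrophage gene, had 0.23 ± 0.13 (adjusted p = 0.28).

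Astrocyte and neuron genes were higher in smaller numbers. Of 11 astrocyte genes, 5 were higher and none lower, with a median of 0.35, and 2 were called without replicate 1. Aqp4, the water channel of astrocyte endfeet, read 8.48, 9.17, 8.63, 8.51 and 8.45 against 9.88, 9.19, 9.67, 9.44 and 9.48 and differed by 0.88 ± 0.15 (adjusted p = 0.0050), with BAL17 replicate 2 just under BAL17VII replicate 2. S100b differed by 1.08 ± 0.24 (called in 7 of the 10 fits with an array left out, adjusted p up to 0.058) and the glutamate transporter gene Slc1a2 by 0.35 ± 0.09 (in 3 of the 10, up to 0.070). Of 20 neuron genes, 5 were higher and none lower, all had positive differences, and the median was 0.31. Tubb3, neuronal beta tubulin, differed by 0.72 ± 0.12, Nefm, a neurofilament, by 0.63 ± 0.12, and Syn2, a synaptic vesicle protein, by 0.43 ± 0.08. Snap25, of the synaptic fusion machinery, had 0.10 ± 0.07 (adjusted p = 0.43).

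Reactive astrocyte genes did not follow the astrocyte list. Of 16, 2 were lower and none higher: Fkbp5, a co-chaperone of the glucocorticoid receptor, and Cp, ceruloplasmin. Without replicate 1, 2 were lower and 1 higher, and the median was 0.008 beside -0.085 with all brains. Fkbp5 read 7.90, 7.93, 7.95, 7.78 and 8.27 in BAL17 brains and 7.40, 6.95, 6.93, 6.84 and 6.93 in BAL17VII brains and differed by -0.95 ± 0.12 (adjusted p = 0.0010), with a PBS mean of 6.73 and a culture difference of -0.57. Cp differed by -0.52 ± 0.12 and was called in 7 of the 10 fits with an array left out (adjusted p up to 0.075). It was lower in cultured BAL17VII than in cultured BAL17 cells as well, at 5.85 and 7.39, a difference of -1.54. Gfap, the filament protein of reactive astrocytes, had 0.56 ± 0.18 (adjusted p = 0.076).

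**Figure D5:**
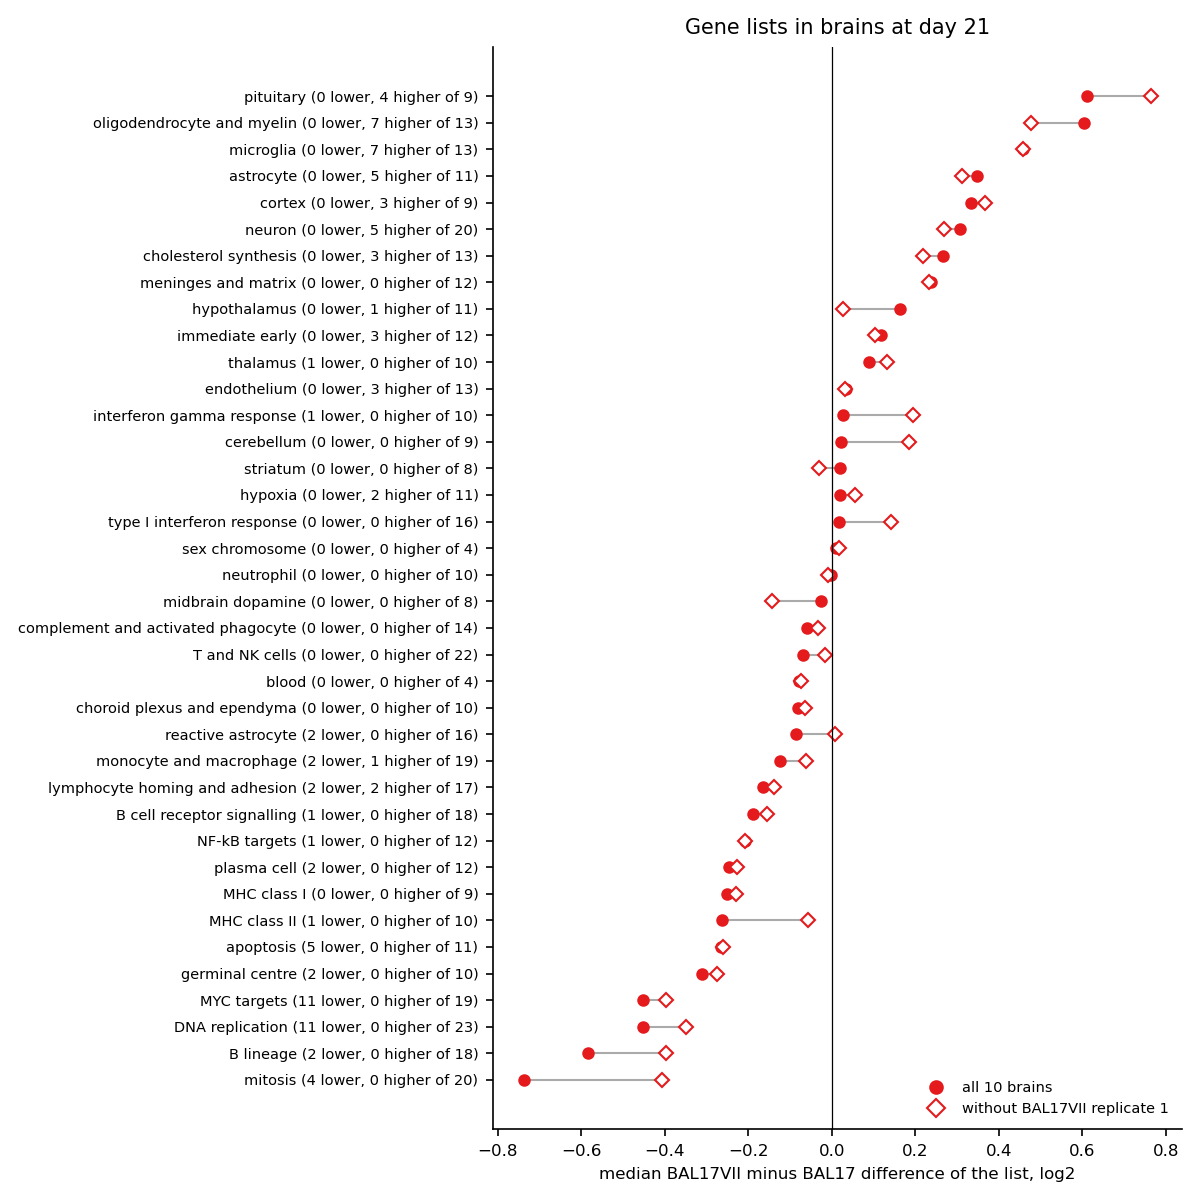
Median difference of each of 38 gene lists in log2 units, with all 10 brains (filled circles) and without BAL17VII replicate 1 (open diamonds), and the number of genes called lower and higher of those measured. Mitosis and B lineage genes lie lowest, at -0.74 and -0.58, and pituitary and myelin genes highest, at 0.61 for each.

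Other cell types and pathways gave few calls. None of 22 T and NK cell genes was called by limma (1 had an unadjusted p under 0.05), with a median of -0.07. Cd3g had -0.33 ± 0.19, Gzmb -0.28 ± 0.16 and Cxcr3 -0.30 ± 0.11. None of 10 neutrophil genes and none of 14 complement and phagocyte genes was called by limma (1 of each had an unadjusted p under 0.05), with medians of -0.002 and -0.06. Of 19 monocyte and macrophage genes, the integrin gene Itgam was higher by 0.74 ± 0.12 (adjusted p = 0.0038), while Msr1, a scavenger receptor, and Cd14 were lower by -0.61 ± 0.15 and -0.37 ± 0.09 (in 7 and 4 of the 10 fits with an array left out, adjusted p up to 0.063 and 0.068). Lyz2, lysozyme of myeloid cells, read 8.41 to 9.61 in BAL17 and 7.97 to 9.47 in BAL17VII brains. Of 13 endothelial genes, 3 were higher, among them Abcb1a, the drug efflux pump of the blood-brain barrier, by 0.36 ± 0.08 and Flt1, a VEGF receptor, by 0.52 ± 0.12. These lost the call without BAL17 replicate 5 (adjusted p = 0.052) and without BAL17 replicate 1 (0.051).

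Genes of cholesterol synthesis and immediate early genes were higher in part. Of 13 cholesterol genes, 3 were higher, with a median of 0.27. Hmgcs1, an early enzyme of the pathway, read 8.52, 9.13, 8.74, 8.59 and 8.79 against 10.12, 9.44, 9.73, 9.41 and 9.50 and differed by 0.89 ± 0.14 (adjusted p = 0.0045), the reverse of -1.78 in culture. Sc5d differed by 0.55 ± 0.12 and Idi1 by 0.71 ± 0.18, the latter in 4 of the 10 fits with an array left out (adjusted p up to 0.073), with BAL17 brains below the PBS means of 9.61, 8.49 and 8.15 for the 3 genes. In culture 11 of the 13 were lower in BAL17VII cells. Of 12 immediate early genes, 3 were higher: Egr2 by 0.84 ± 0.13, Arc by 0.63 ± 0.11 and Jun by 0.40 ± 0.08. The MHC class I, choroid plexus, meninges and matrix, blood and sex chromosome lists had no call by limma among 9, 10, 12, 4 and 4 genes, of which 4, 0, 4, 0 and 0 had an unadjusted p under 0.05. Their medians were -0.25, -0.08, 0.24, -0.08 and 0.01. Of 11 hypoxia genes 2 were higher, with a median of 0.02.

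Markers of the pituitary and of brain regions differed between single brains. The mean of 9 pituitary genes lay between 5.96 and 6.21 in BAL17 brains and was 7.38, 8.93, 8.67, 6.09 and 8.48 in BAL17VII brains, beside 6.16 to 6.86 in PBS brains. BAL17VII replicate 4 was thus at the level of BAL17 brains and the other 4 were higher. Prl (prolactin) read 5.07 to 5.63 in BAL17 brains and 11.98, 13.20, 13.20, 5.57 and 13.02 in BAL17VII brains, a difference of 6.10 ± 1.10 (adjusted p = 0.0069), with PBS brains at 8.07 ± 2.06 (SD, n = 5). Gh (growth hormone) differed by 4.44 ± 0.99 and Cga, the common hormone alpha chain, chosen after its values were seen, by 3.31 ± 0.91, and BAL17VII replicate 4 overlapped with BAL17 brains in both. Gh was not called without BAL17 replicate 5 (adjusted p = 0.052), and Cga was called in 3 of the 10 fits with an array left out. Tshb, the beta chain of thyrotropin, read 5.10, 5.14, 5.18, 5.56 and 5.32 against 5.87, 7.68, 7.22, 5.60 and 6.86, a difference of 1.38 ± 0.31, and Pomc had 0.35 ± 0.11 (adjusted p = 0.076).

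The mean of 9 cerebellum genes ranged from 8.42 to 9.40 in BAL17 brains and was 8.18, 8.58, 8.46, 9.84 and 9.54 in BAL17VII brains, and none was called by limma or had an unadjusted p under 0.05. The hypothalamus mean of 6.36 to 7.55 in BAL17VII brains was highest in replicate 1, and Sst, a neuropeptide of cortex and hypothalamus, was higher by 0.66 ± 0.16, in 5 of the 10 fits with an array left out (adjusted p up to 0.061). None of 8 striatum and none of 8 midbrain dopamine genes was called by limma, and 0 of each had an unadjusted p under 0.05. In turn 3 of 9 cortex genes were higher, with a median of 0.33, and 1 without replicate 1. The mean of this list was 7.85 to 8.06 in BAL17 brains and 8.10, 7.94, 8.04, 8.56 and 8.40 in BAL17VII brains, so that only replicates 1, 4 and 5 lay above all BAL17 brains. Of 10 thalamus genes, Prkcd was lower by -0.87 ± 0.19 (adjusted p = 0.018), and both cultures held it at 10.15 and 9.73, above the PBS mean of 9.15. The part of dissection in any of the differences above was not tested.

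When the mean of the B lineage list was added to the model as a covariate, 52 genes were called, 29 higher and 23 lower. Of these, 44 were among the genes called without it, and 24 were called with it both with and without replicate 1. The list mean was 7.30 to 7.74 in BAL17 brains and 6.17, 7.44, 7.19, 6.90 and 7.22 in BAL17VII brains. Only BAL17VII replicate 2 lay within the BAL17 range, so the lines were adjusted along a fitted slope and not compared at equal levels. Group and B cell content are therefore only partly separable. Genes of both directions remained, with the value in this fit given after each name. Map3k15 (-1.52), Il7r (-1.66), Casp4 (-1.60), Ptpn22 (-1.71), Rgs13 (-2.27) and Slamf7 (-1.60) were lower in this fit. Without replicate 1, Slamf7 was -1.10 and called, and Rgs13 was -1.72 and not called (adjusted p = 0.083). Abi3bp (1.46), Fabp7 (2.30), Hmcn1 (1.40), Efemp1 (1.32), Lxn (1.21), Dock10 (0.71) and P2ry13 (0.69) were higher, and of these Hmcn1 and P2ry13 were not called without replicate 1 (adjusted p = 0.052 and 0.055). Myc, Cxcr4, Mcm4, Wdr43, Ctse, Aqp4, Opalin and Tubb3 were not called in the fit with all brains. Pou2af1 was not called either, but it belongs to the list whose mean was added, so its result there tells nothing. Plac8 (2.15), Cd2 (1.24) and Cd74 (1.14), which were not called with all brains before, were higher in this fit with all brains. None of these 3 was called in it without replicate 1 (adjusted p = 0.058, 0.076 and 0.076). Vpreb3 (1.26) and Gnrhr (1.58), newly called in this fit as well, were also called without replicate 1 (adjusted p = 0.0077 and 0.035). Both were chosen after their values were seen and are not in the counts of genes given in the text.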

How the data were processed

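RNA of 32 samples was measured on Affymetrix mouse gene arrays. The deposited values are intensities. The submitters' processing notes name RMA and Affymetrix Expression Console, with no version. Whether cultures and brains were normalized together is not given in the sources used here. The authors' intensities ran from 2.72 to 17825, and log2 was taken. RMA gives no detection call. The array medians of the 10 brains lay between 6.37 and 6.54, and their number limits the precision. Of 35556 probe sets, 21789 carried 1 symbol (19938 genes), 1621 several and 12146 none, with no intensity filter. Each gene was represented by its brightest probe set.

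Group means of the 10 brains were fitted with limma 3.58.1 (R 4.3.3), with empirical Bayes moderation, two-sided. Brain against culture used a fit of the 22 arrays of these groups, repeated with brains and cultures fitted apart. The scripts were tested on simulated data first.

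The members and the 38 lists were chosen with earlier results of these data known. Genes are named by a rule: the 12 largest non-overlapping called differences per direction with and without replicate 1, the 3 smallest p-values per list, and 37 fixed genes, of which 36 were measured; others are marked as chosen after their values were seen. The lymphoma-high, brain-high and small RNA groups were also chosen after seeing the data. Alternatives covered normalization, filters, probe set choice, moderation, array weights, covariates and each array left out. Tables and figures used Python 3.11.15, pandas 2.3.3 and matplotlib 3.10.9.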

Additional observations from a re-analysis of the deposited data

Results flagged for a closer look

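In the direct test of brain against culture, the difference between the lines was of another size in brains for 83 of the 129 genes given in the text. Of these, 51 had a lower and 32 a higher difference in brains. Over all genes the test called 13.4%. Of the 163 lymphoma-high genes it called 74, of which 72 had a negative value. Negative values of such genes, among them Bcl2, Pou2af1, Ttk and Map3k15, are to be read beside this. Many of the 129 genes were named by their brain differences, so their share is no result about them. For genes low in both cultures, such as Fabp7 and Abi3bp, the value nearly repeats the brain difference. The values of the direct test lay lowest in H2-Ea (-5.98), H2-Aa (-5.13), Cd74 (-4.43), Dock10 (-4.26), Xlr (-3.46), Trim30a (-3.38), Ptpn22 (-3.31), Dpp4 (-2.99), Adgrg7 (-2.97), P2ry10 (-2.37), Plac8 (-2.18), Ctse (-2.04) and Cd2 (-2.03). They lay between -2 and -1 in Myc (-1.87), Klhl6 (-1.81), Casp4 (-1.79), Birc3 (-1.79), Ciita (-1.72), Cd37 (-1.66), Mcoln2 (-1.60), Ptprc (-1.56), Btk (-1.55), Snord82 (-1.53), Stap1 (-1.53), Cxcr4 (-1.52), Cdk6 (-1.42), Inpp5d (-1.36), H2-Ob (-1.31), Prkcd (-1.28), Cd79b (-1.28), Etnppl (-1.15), Cd274 (-1.07), Snord22 (-1.06), Ttk (-1.03) and Bcl2l11 (-1.01). Smaller negative values belonged to Slamf7 (-0.98), Ccr7 (-0.95), Rsad2 (-0.95), Snord53 (-0.94), Map3k15 (-0.94), Pou2af1 (-0.93), Phyhd1 (-0.92), Snora3 (-0.89), Bcl2 (-0.88), Sult1a1 (-0.81), Wdr43 (-0.68), Ifit2 (-0.61), Plin4 (-0.58), Tnfrsf13b (-0.45), Cd14 (-0.42) and Fkbp5 (-0.39). Positive values over 1 belonged to Prl (6.12), Gh (4.81), Cga (3.13), Hmgcs1 (2.67), Fabp7 (2.32), Idi1 (2.24), H2bc4 (1.69), Tshb (1.59), Ermn (1.58), Cryab (1.52), Ugt8a (1.46), Lxn (1.45), Abi3bp (1.44), Hmcn1 (1.38), Tnfaip6 (1.34), Cd3g (1.29), Efemp1 (1.22), Gng11 (1.11), Opalin (1.03), Cp (1.02) and Egr2 (1.01), and smaller ones to Aqp4 (0.98), Gpr34 (0.96), S100b (0.96), Mag (0.92), Kynu (0.74), Sc5d (0.71), Cx3cr1 (0.65), Arc (0.62), P2ry13 (0.60), Jun (0.57) and Rfc3 (0.32). When brains and cultures were fitted apart, an alternative chosen after seeing the data, 81 of the 83 were called, and Slamf7 and Fkbp5 were not (adjusted p = 0.052 and 0.058).

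Single brains stood far from the other 4 of their group in 35 of 274 group values looked at. Many of the 274 belong to genes named by their values on these same arrays, and they are not independent. The count is therefore not set against a chance rate. BAL17VII replicate 1 made up 17 of the 35. It was low in genes of lymphocytes and division: Cdk6 (6.09), Ctse (5.73), Cxcr4 (6.92), Btk (5.43), Ms4a1 (4.52), P2ry10 (2.78), Pou2af1 (6.35), Ptpn22 (5.32), Ezh2 (8.52), Aurkb (6.20), Mcm6 (5.92), Mki67 (5.59), Top2a (5.23) and the mean of the mitosis list (5.60). It was high in Fkbp5 (7.40), Gpr34 (6.57) and Opalin (7.93). BAL17VII replicate 4 was low in Prl (5.57) and Abi3bp (7.63).

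Among BAL17 brains, replicate 2 was high in genes of brain cells, namely Fabp7 (8.84), Aqp4 (9.17), Bcas1 (7.83), Cryab (9.23), Sst (10.27) and Tubb3 (10.32), and in Trim30a (8.20). Replicate 3 was high in Klhl6 (9.47), Gzmb (5.75) and Edem1 (7.96) and low in Nolc1 (8.54). Replicate 5 was high in the mean of the lymphoma-high genes (7.85), in Kif11 (9.0), Bcl2l11 (7.68) and Spinkl (7.47), and replicate 4 was low in Dpp4 (5.47).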

How the results depend on the processing

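The 1427 calls with all brains became 2716 with all 20 brains in the fit, 2924 with array weights and 52 with the B lineage mean as a covariate, and ranged from 499 to 2494 when each array was left out. The 762 calls without BAL17VII replicate 1 became 1494 with all 19 other brains and 34 with the covariate, and ranged from 295 to 1785 when a further array was left out. Median centring, quantile normalization, both intensity filters, the mean of probe sets and trended or robust moderation kept the count within 1.5 times, between 1060 and 1631. With the covariate Cd2 and Cd74 turned from -0.01 and -0.37 to 1.24 and 1.14. The test of brain against culture gave 2155 to 3442 calls beside 2681, with 2654 when brains and cultures were given a weight each and 2819 when they were fitted apart, both chosen after seeing the data. Replicate numbers are shared between the groups, but same-numbered brains did not deviate together (correlations of -0.092 to 0.209, and no brain matched its own number best). With the replicate block there were 1167 calls with all brains and 533 without replicate 1. Of the 100 called genes given above, 64 were called in each of the 10 fits with an array left out, and 90 without BAL17VII replicate 1. A dim probe set shows only a low signal, and residual background can shrink differences of dim genes.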

Other observations

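Etnppl, Phyhd1, Sult1a1 and Plin4, all chosen after their values were seen, were lower in BAL17VII brains, while none of them was called different between the cultured lines, where limma gave differences of 0.03, -0.004, 0.06 and 0.08. Etnppl, a phospholyase of astrocytes, read 9.39, 9.72, 9.45, 9.10 and 9.32 in BAL17 brains and 8.69, 8.15, 8.48, 8.04 and 8.01 in BAL17VII brains. Its difference was -1.12 ± 0.14 (adjusted p = 0.0011), PBS brains had a mean of 8.24, and the cultures lay at 4.46 and 4.49. Phyhd1, a dioxygenase, differed by -0.93 ± 0.10 with a PBS mean of 7.37, and Sult1a1, a sulfotransferase, by -0.75 ± 0.12 with a PBS mean of 6.86. Plin4, a lipid droplet protein, differed by -0.50 ± 0.12 and was called in 6 of the 10 fits with an array left out (adjusted p = 0.052 without replicate 1 and up to 0.060). In Etnppl, Phyhd1 and Sult1a1 the groups did not overlap and BAL17 brains held the higher values.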
